A study of Mus musculus with 6 samples.

Results

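Id2, Nfil3, Zbtb46, Zeb2, Tcf4, Bcl6, Spi1, Klf4, Ikzf1 and Spib encode transcription factors that set the fate of dendritic cells (DCs). These 10 genes were taken by name, as lineage regulators of DCs outside the AP-1 and Irf families, from the 54532 gene identifiers of each library, and all 10 were expressed highly enough to be tested. The study asked what the AP-1 proteins c-Jun and JunB do in type 1 conventional DCs (cDC1). RNA was sequenced from cDC1 that had been sorted from mouse bone marrow cultures after 8 days with 80 ng/mL FLT3L, the growth factor of DC development (cDC1FL). The control group (c-Jun/JunB fl/fl) held 3 libraries, in which both genes are flanked by loxP sites but intact. The other group, called KO in the labels, held 3 libraries of c-Jun/JunB fl/fl mice that also carried Itgax-Cre, in which Cre is made from the promoter of Itgax (CD11c) and so acts once a developing DC turns that promoter on. Both groups carried the floxed alleles, and the methods give a mixed 129 Sv and C57BL/6 background, both sexes and an age of 8 to 16 weeks for the mice of the study as a whole. Sorted cells were CD24+CD11c+B220-CD115-CD172a-.

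DC fates are held apart by factors that repress one another. NFIL3 acts against ZEB2, ZEB2 acts against ID2, and ID2 binds E proteins such as E2-2, the product of Tcf4, which drives plasmacytoid DCs (pDCs). PU.1 (Spi1) and Ikaros (Ikzf1) act earlier and in most blood lineages, ZBTB46 marks the conventional DCs as a whole, and KLF4 is known for its part in monocytes and in a subset of type 2 conventional DCs (cDC2).

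Libraries held 21693217 to 26788296 reads on genes. Values are given as reads per 1000000 reads on tested genes (CPM) after TMM scaling, and tests are edgeR quasi-likelihood tests with Benjamini-Hochberg adjustment over 12894 genes unless another is named. Junb reads were 315, 274 and 413 CPM in the fl/fl libraries and 110.4, 171 and 212 CPM in the KO libraries. The ranges did not overlap, but the log2 fold change of -1.02 had an adjusted p of 0.0729. Jun, with 70.9, 52.5 and 63.1 CPM in fl/fl and 48.2, 44.3 and 60.5 CPM in KO libraries, overlapped between genotypes (adjusted p = 0.345). Reads of both genes thus remained in every KO library. Which bases Cre removes is not known here, so for these libraries the genotype rests on the labels. The paper reports the deletion by RT-qPCR in cDC1 sorted from spleen and lymph nodes of such mice. Its supplement also shows RT-qPCR of both genes in cDC1 sorted from FLT3L cultures of both genotypes, on the same day of culture as here. The outcome for Jun and Junb in those cultures is drawn in a figure and not stated in words, so it is not used here. The cDC1 markers Xcr1 and Clec9a were abundant in both genotypes. Xcr1 was at 421 to 475 CPM in fl/fl and 122 to 201 CPM in KO libraries. Of 15 cDC1 markers, 5 passed the test as lower in KO libraries, where 1.85% of all genes did. That list was chosen with earlier results of these libraries known, and it holds genes already reported as lower in them. The share that passed is therefore no independent test against all genes. Cd3e of T cells stayed under 0.3 CPM and S100a8 of neutrophils under 6 CPM.

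Klf4 alone among the 10 factors passed the test between genotypes, at an adjusted p under 0.05. Across all genes tested, 3.88% passed it, so 1 of 10 is not far from the background. None of the 10 also reached a log2 fold change of 1, which 1.86% of all genes did, and the count was also 0 with DESeq2 and limma-voom. At an unadjusted p under 0.05 the edgeR test again held Klf4 as the 1 factor, where 19.4% of all genes were under that limit. Klf4 was also the single factor whose fl/fl and KO libraries did not overlap, against 26.0% of all genes. The log2 fold change was positive for 9 of the 10, with Zbtb46 the exception, and its median was 0.12, beside 0.0018 over all genes. Its median size without sign was 0.12, against 0.158 over all genes.

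**Figure D1:**
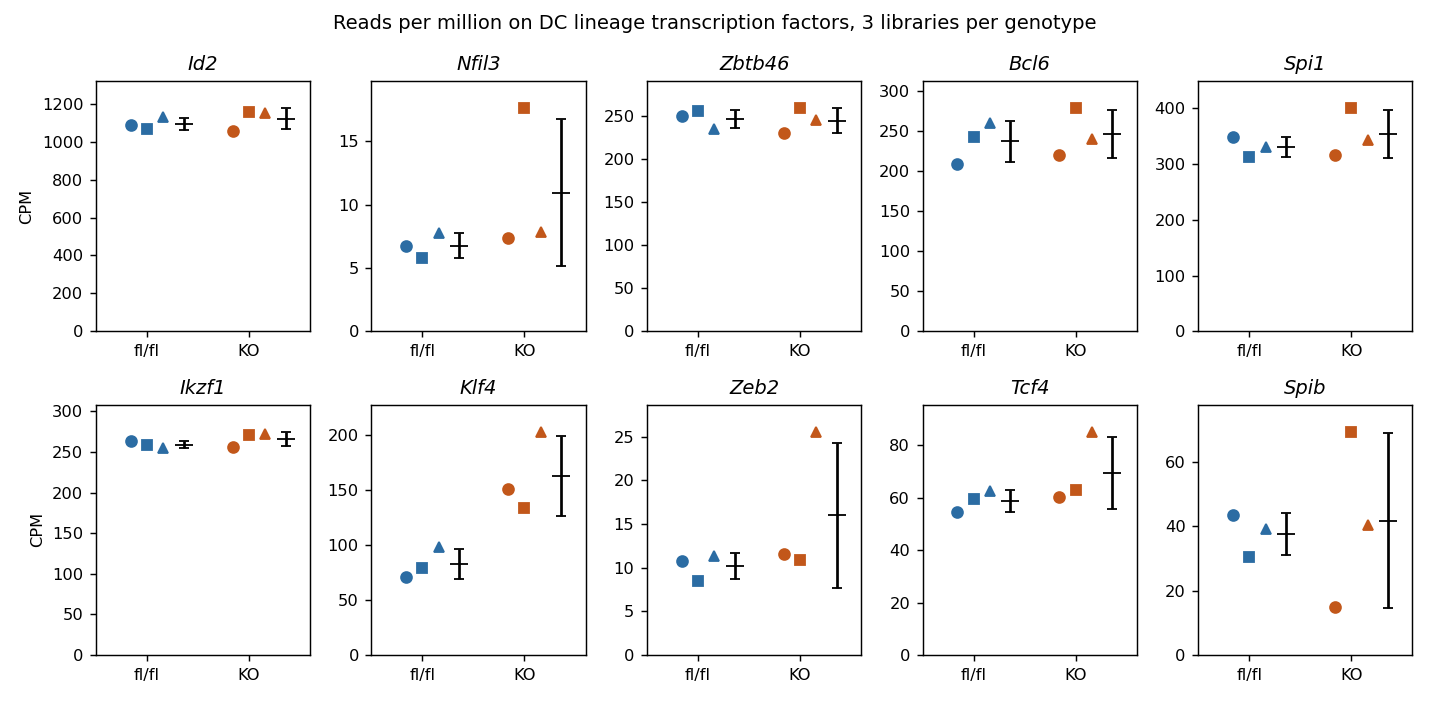
Normalised reads (CPM, each axis from 0) of the 10 factors in 3 fl/fl (blue) and 3 KO (orange) libraries, with circle, square and triangle for libraries 1, 2 and 3 and the mean with its SD in black. Klf4 is the panel in which all KO libraries, at 133 to 203 CPM, lie above all fl/fl libraries, at 71.1 to 98.2 CPM, and Nfil3, Zeb2 and Tcf4 each have 1 KO library that lies above the other 5, while the KO libraries of Spib lie on both sides of the fl/fl range.

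Among the factors of the cDC1 fate, Id2 was steady. Id2 encodes the helix-loop-helix protein that lacks a DNA-binding region and takes E proteins out of action (chr12:25093799-25097140, GRCm38). It gave 1087, 1068 and 1129 CPM in the fl/fl libraries and 1057, 1158 and 1152 CPM in the KO libraries. The ranges overlapped, and the log2 fold change of 0.04 had a 95% interval of -0.10 to 0.17 (adjusted p = 0.779), so that a change larger than 1.13-fold lies outside the interval. These are bulk samples, in which fewer cells of a type and less RNA per cell cannot be told apart.

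Nfil3 encodes a basic leucine zipper repressor needed for cDC1 development (chr13:52967209-52981073). Its levels were 6.75, 5.78 and 7.76 CPM in the fl/fl libraries and 7.34, 17.6 and 7.84 CPM in the KO libraries. KO 2 was high, with 378 reads against 156 to 183 in the other 5 libraries, and KO 1 and KO 3 lay near the fl/fl libraries. The log2 fold change was 0.69 ± 0.35 (SE) with an adjusted p of 0.334, and its interval of -0.13 to 1.52 leaves the size of any difference unresolved.

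The factors with broader roles differed little between genotypes. Zbtb46 (chr2:181387762-181459426), a zinc finger repressor restricted among immune cells mainly to conventional DCs, had 251, 256 and 236 CPM in fl/fl against 230, 260 and 246 CPM in KO libraries. Its ranges overlapped, with a log2 fold change of -0.01 and a 95% interval of -0.17 to 0.14 (adjusted p = 0.938). Ikzf1 (chr11:11685003-11772926), which encodes Ikaros, had 264, 258 and 255 CPM against 256, 271 and 272 CPM. The tight groups gave a log2 fold change of 0.04 with an interval of -0.08 to 0.16 (adjusted p = 0.727).

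Spi1 (chr2:91082390-91115756), which encodes the myeloid pioneer factor PU.1, had 348, 313 and 331 CPM in fl/fl against 317, 401 and 343 CPM in KO libraries. KO 2 was the highest of the 6 libraries and KO 1 lay inside the fl/fl range, giving a log2 fold change of 0.10 ± 0.09 (adjusted p = 0.614). Bcl6 (chr16:23965052-23988852), a repressor that favours cDC1 over cDC2, had 209, 242 and 260 CPM against 221, 279 and 240 CPM. Here too KO 2 was the highest library, and the groups overlapped, with a log2 fold change of 0.06 ± 0.11 (adjusted p = 0.823).

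Klf4 encodes a zinc finger factor of monocytes and of a cDC2 subset (chr4:55527143-55532466). It gave 71.1, 78.8 and 98.2 CPM in the fl/fl libraries and 151, 133 and 203 CPM in the KO libraries. The lowest KO library stood above the highest fl/fl library, and the means were 82.7 ± 14.0 and 163 ± 36.4 CPM (SD, n = 3 each). Klf4 rose 1.97-fold in the KO libraries, a log2 fold change of 0.97 ± 0.18 (SE) with a 95% interval of 0.55 to 1.40 and an adjusted p of 0.0321. The call depends on single libraries: the adjusted p was 0.0502 without KO 3, and leaving out a control library gave 0.158 (fl/fl 1), 0.166 (fl/fl 2) and 0.0558 (fl/fl 3). The log2 fold change in those fits stayed between 0.78 and 1.11. Klf4 lies on the chromosome of Jun, 39.5 Mb from that floxed gene.

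**Figure D2:**
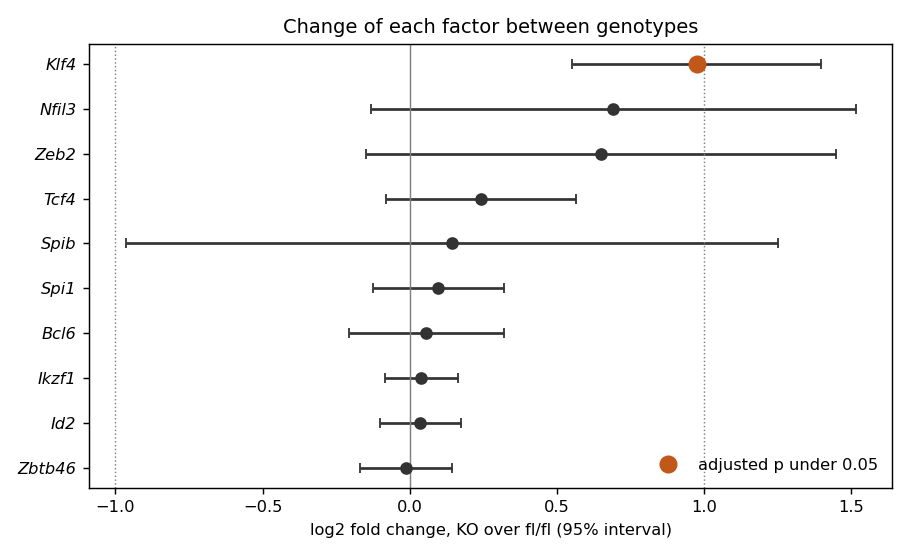
Log2 fold change of each factor, KO over fl/fl, with its 95% interval from the edgeR fit (6 libraries); dotted lines mark a log2 fold change of 1 in either direction. Klf4, at 0.97, is the factor whose interval lies above 0, while Spib has the widest interval, from -0.97 to 1.25.

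Some marker genes of other cells were higher in the same libraries as Klf4. The summed level of 12 cDC2 markers was 309, 348 and 485 CPM in the fl/fl and 551, 659 and 833 CPM in the KO libraries. Much of that difference was Cd209a, with 39.1, 39.1 and 69.2 CPM in fl/fl and 196, 268 and 239 CPM in KO libraries. Within that list Cd4 and Cd209a passed the test as higher in KO cells and Clec12a as lower, while Sirpa, which encodes the CD172a that the sort selected against, was at 44.7 to 60.5 CPM in fl/fl and 40.9 to 46.8 CPM in KO libraries. The summed level of 10 monocyte and macrophage markers was 2450 to 2871 CPM in fl/fl and 3467 to 4313 CPM in KO libraries. Of these, Adgre1 and Ccr2 passed as higher, and Csf1r, which encodes the CD115 of the sort gate, stayed between 3.59 and 6.81 CPM in all libraries. Mertk and C5ar1 were at or under 0.551 CPM, with no read in at least 1 library of each genotype, and Lyz2 and Ccr2 made up most of the sum. The part of such cells in the Klf4 result was not tested.

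Genes that respond within minutes to cell handling and signals were also uneven. A list of 10 such immediate early genes, Fos, Egr1 and Ier2 among them, was added after values had been seen. Their summed level was 596, 542 and 783 CPM in the fl/fl libraries and 731, 1405 and 1765 CPM in the KO libraries. KO 1 lay inside the fl/fl range, and KO 2 and KO 3 lay above it. Klf4 in KO 1 was at 151 CPM. With the mean log2 level of these genes as a covariate, the log2 fold change of Klf4 was 0.78 with an adjusted p of 0.151, past the threshold no longer. That covariate was at -0.66, -0.86 and -0.12 in fl/fl and -0.50, 1.00 and 1.13 in KO libraries. It thus partly follows genotype, and with 6 libraries the fit cannot tell it from genotype. The part of these genes' response in the Klf4 result was not tested.

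Zeb2, the repressor that directs cells to the pDC and cDC2 fates (chr2:44983632-45117395), was low in every library. It had 10.8, 8.49 and 11.3 CPM in fl/fl against 11.6, 10.8 and 25.6 CPM in KO libraries. KO 3 was high, with 581 reads against 229 to 285 in the other 5 libraries, and the log2 fold change of 0.65 ± 0.34 did not pass (adjusted p = 0.346). Tcf4, which encodes the pDC factor E2-2, had 54.4, 59.5 and 62.4 CPM in fl/fl against 60.3, 63.0 and 85.3 CPM in KO libraries. KO 3 again was the highest, and the log2 fold change was 0.24 with an interval of -0.08 to 0.57 (adjusted p = 0.384). KO 3 also held the most Siglech, a surface receptor of pDCs, at 37.5 CPM, against 19.7 and 16.5 CPM in KO 1 and KO 2 and 7.79 to 10.8 CPM in fl/fl libraries (adjusted p = 0.0571). Ccr9 and Bst2 did not share this order. Over the whole list of 13, 9 were tested and Ccr9, a chemokine receptor, was the one that passed (adjusted p = 0.00333), with 20.8 to 24.0 CPM in fl/fl libraries and 69.9, 60.4 and 52.0 CPM in KO 1, KO 2 and KO 3, of which KO 3 was the lowest. Bst2, a surface protein of pDCs, was lower in KO libraries without overlap, at 89.1 to 109 CPM in fl/fl and 70.5 to 79.0 CPM in KO libraries (log2 fold change of -0.41, adjusted p = 0.0572). The summed level of the list was 179 to 199 CPM in fl/fl and 225 to 235 CPM in KO libraries, and Ccr9 made up most of that difference. Ptcra stayed at or under 0.140 CPM in every library. The part of pDCs in these values was not tested.

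Spib, an Ets factor of pDCs and B cells and a relative of PU.1 (chr7:44525993-44532071), had the widest spread of the 10. It gave 43.3, 30.5 and 39.2 CPM in the fl/fl libraries and 15.01, 69.4 and 40.5 CPM in the KO libraries. KO 1 was the lowest and KO 2 the highest of all 6, a 4.62-fold range, whereas KO 3 lay with the fl/fl libraries. The log2 fold change of 0.14 ± 0.47 therefore carried no direction (adjusted p = 0.900), and it was -0.44 without KO 2. For all 10 factors, the median ratio of highest to lowest library was 1.20 in fl/fl and 1.34 in KO libraries, beside 1.16 and 1.25 over 12791 genes with reads in every library.

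**Figure D3:**
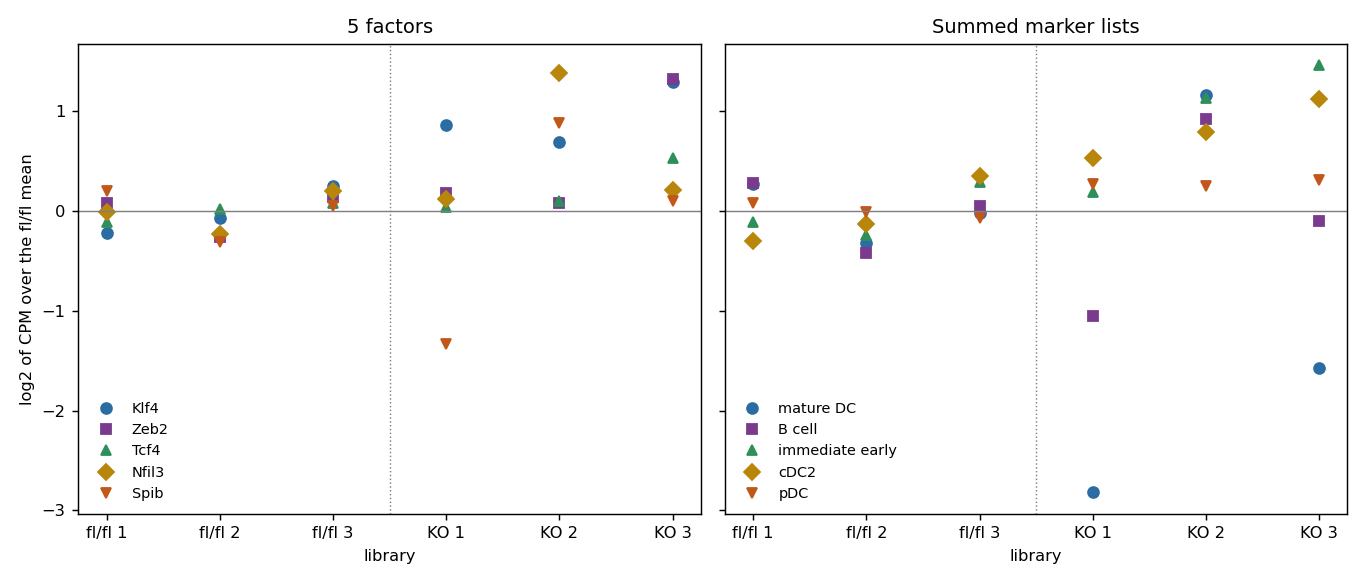
Log2 of CPM over the fl/fl mean in each library, for 5 factors (left) and for summed marker lists (right), in which the mature DC and immediate early lists were added after values had been seen. Spib, the mature DC list and the B cell list share their low point in KO 1 and their high point in KO 2, and Klf4 and the cDC2 list are above 0.5 in every KO library. Cd209a makes up much of the rise of the cDC2 list.

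Spib and Nfil3 were highest in KO 2, as were genes of mature DCs. A list of 8 genes that DCs switch on as they mature, with the lymph node homing receptor Ccr7, the actin bundler Fscn1 and the chemokine Ccl22 among them, was added after values had been seen. Its summed level was 932, 616 and 761 CPM in fl/fl and 109, 1720 and 259 CPM in KO libraries. KO 1 and KO 3 were thus below and KO 2 above every fl/fl library. As log2 over the fl/fl mean, the list was at -2.82 in KO 1 and -1.57 in KO 3. Nfil3 was at 0.12 and 0.21 there and Spib at -1.33 and 0.11, so the likeness of Nfil3 rests on KO 2. Id2, Spi1, Bcl6 and Zbtb46 also ranked the KO libraries in the order KO 1, KO 3, KO 2. The 10 B cell markers summed to 34.4, 21.2 and 29.4 CPM in fl/fl and 13.7, 53.7 and 26.5 CPM in KO libraries. Their order was nearly that of the mature DC list. Of them, Cd79a ran from 1.62 to 7.56 CPM, and Vpreb3 and Igll1 had no read in any library, which allows up to 0.0393 CPM over the fl/fl and 0.0435 CPM over the KO libraries from counting error alone. With the mean log2 level of the mature DC genes as a covariate, Spib had a log2 fold change of 0.47 (adjusted p = 0.267) and Nfil3 one of 0.93, with an adjusted p of 0.0271. Klf4 stayed past the threshold in that fit, at 0.88 (adjusted p = 0.0358).

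Promoters were searched for the motifs to which dimers of Jun proteins are known to bind. The RefSeq table used (GRCm38.p6) held 13 transcription starts for 8 of the 10 factors, Tcf4 and Spi1 being the others, each with 250 bases before and 50 after the start. TGANTCA, the AP-1 site (TRE), was found in 2 of the 13 windows, and TGACGTCA, the CRE, in none. Over all 32851 promoters of the table, 7.81% held the first and 1.79% the second. Both motifs were sought on either strand, and no window here held overlapping matches. The windows are printed 5′ to 3′ on the gene's strand, which is the minus strand for all 3 genes, with each TGANTCA in capitals. They are the pair that hold a match, from a Zeb2 start at chr2:45110228-45110527 and a Zbtb46 start at chr2:181424339-181424638, and that of Klf4, the factor that rose, at chr4:55532426-55532725.
Zeb2: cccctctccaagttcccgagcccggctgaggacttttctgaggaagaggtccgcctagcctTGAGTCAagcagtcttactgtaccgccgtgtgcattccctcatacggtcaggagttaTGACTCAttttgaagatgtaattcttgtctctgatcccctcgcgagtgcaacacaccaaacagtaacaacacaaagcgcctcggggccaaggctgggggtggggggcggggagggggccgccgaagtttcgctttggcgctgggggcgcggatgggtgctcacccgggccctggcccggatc
Zbtb46: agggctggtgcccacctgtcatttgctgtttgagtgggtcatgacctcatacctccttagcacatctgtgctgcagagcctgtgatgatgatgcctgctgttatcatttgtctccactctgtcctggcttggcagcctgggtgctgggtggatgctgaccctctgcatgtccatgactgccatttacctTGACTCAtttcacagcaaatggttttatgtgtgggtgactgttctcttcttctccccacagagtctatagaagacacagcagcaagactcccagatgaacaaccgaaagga
Klf4: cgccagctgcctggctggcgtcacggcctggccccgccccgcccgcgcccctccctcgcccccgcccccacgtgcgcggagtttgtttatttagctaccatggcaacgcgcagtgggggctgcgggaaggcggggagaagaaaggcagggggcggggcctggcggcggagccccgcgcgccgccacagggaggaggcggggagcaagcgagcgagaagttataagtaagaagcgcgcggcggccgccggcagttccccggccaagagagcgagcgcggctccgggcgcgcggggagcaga
In the Zeb2 window the matches begin 189 and 132 bases before the start, and in the Zbtb46 window the match begins 61 bases before it. Both starts lie inside the annotated genes, whose 5′ ends are at 45117395 (Zeb2) and 181459426 (Zbtb46) of chr2. Whether the Zbtb46 start is that of a transcript or the edge of an inner exon was not tested, so its match may lie in an intron. Klf4 has a window of 74.3% G and C with neither motif. A match is a description of letters and shows no binding, and Zeb2 and Zbtb46 did not pass the test between genotypes.

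Compared per kb of exons, the factors spanned a wide range of levels. In fl/fl cells the mean was 449 CPM per kb for Id2, which is higher than 99.4% of tested genes on this scale, and 123 for Spi1. Ikzf1 at 44.9, Bcl6 at 35.4, Zbtb46 at 29.1 and Klf4 at 27.1 CPM per kb followed. The low end held Spib at 13.1, Nfil3 at 3.34, Tcf4 at 2.15 and Zeb2 at 0.511 CPM per kb. Within the fl/fl libraries Zbtb46 and Klf4 were the neighbours in this order whose ranges overlapped. In KO cells Klf4, at 53.3 ± 11.9 CPM per kb, ranked above Ikzf1, at 46.1 ± 1.54, with overlapping ranges, and Spib and Nfil3 overlapped as well. The order in part depends on the length used: by the longest transcript in place of all exons, Bcl6 (60.3 CPM per kb) ranked above Ikzf1 (50.2) and Tcf4 (6.85) above Nfil3 (3.34) in fl/fl cells.

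**Figure D4:**
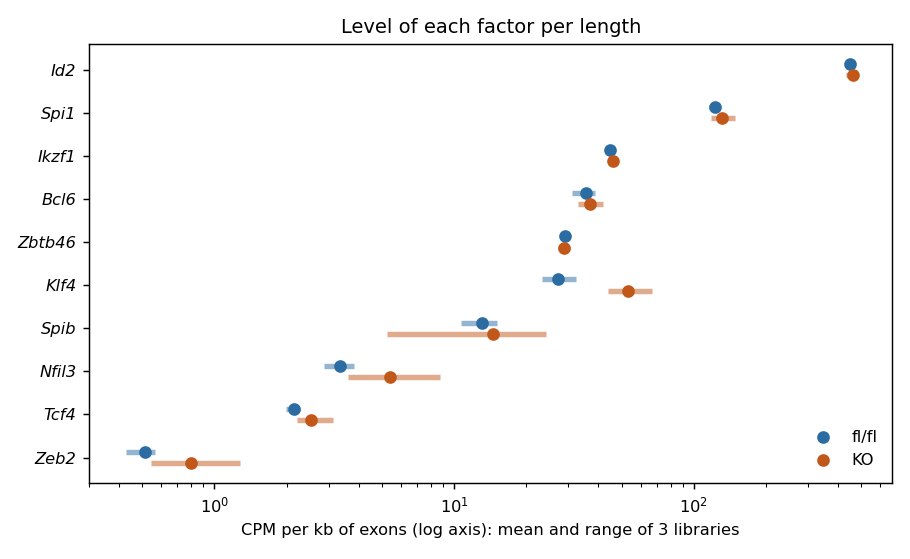
Level of each factor in CPM per kb of exons, on a log axis, as the mean (point) and range (bar) of 3 fl/fl (blue) and 3 KO (orange) libraries, ordered by the fl/fl mean. Id2 at 449 and Zeb2 at 0.511 CPM per kb mark the ends, and Klf4 is the factor whose bars lie apart.

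Ratios within a library do not depend on how libraries are scaled. The log2 ratio of Klf4 to Zbtb46 was -1.82, -1.70 and -1.26 in fl/fl and -0.61, -0.96 and -0.27 in KO libraries, and these ranges did not overlap (difference of the means, 0.98). Between Id2 and its target E2-2, the log2 ratio of Id2 to Tcf4 was 4.32, 4.17 and 4.18 in fl/fl and 4.13, 4.20 and 3.76 in KO libraries, which overlapped. The log2 ratio of Id2 to Zeb2 averaged 6.76 ± 0.19 in fl/fl and 6.25 ± 0.67 in KO libraries (SD, n = 3 each), with KO 3 lowest at 5.49. Nfil3 to Zeb2 averaged -0.59 ± 0.08 and -0.55 ± 1.21, since KO 2 was high at 0.70 and KO 3 low at -1.71. The log2 ratio of Spi1 to Spib was 3.01, 3.36 and 3.08 in fl/fl and 4.40, 2.53 and 3.08 in KO libraries, with KO 1 high through its low Spib. The ratios to Zeb2 and to Spib thus overlapped between genotypes.

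Relatives of the factors were mostly expressed and none passed the test. Of 31 paralogs, 22 were tested, and 3 (Spic, Klf9 and Klf16) had an unadjusted p under 0.05 in edgeR, a share no higher than the 19.4% of all genes. DESeq2 called 1 of them, Spic, and limma-voom 0. The E protein genes Tcf3 and Tcf12, whose products ID2 also binds, had mean levels of 84.0 and 62.2 CPM in fl/fl against 87.6 and 57.6 CPM in KO libraries. Zeb1, the paralog of Zeb2, was at 75.7 ± 2.91 CPM in fl/fl and 72.3 ± 3.81 CPM in KO libraries. The Klf4 relatives Klf6 and Klf2 were at 424 and 101 CPM in fl/fl and 423 and 91.5 CPM in KO libraries. Spic, the PU.1 relative of red pulp macrophages, was near the limit of detection and lower in KO libraries without overlap. It had 50, 37 and 21 reads in fl/fl and 5, 13 and 1 reads in KO libraries, a log2 fold change of -2.30 ± 0.71 with an adjusted p of 0.135. Ikzf2, the Ikaros paralog Helios, was highest in KO 2 at 14.4 CPM, against 3.16 to 7.14 CPM in the other 5 libraries (adjusted p = 0.335). Id3 had 6 to 28 reads in all libraries.

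Of 52 other regulators of DC development, 47 were tested, and 5 passed, all of them higher in KO libraries. Over all genes, 2.03% passed in that direction. This list was also chosen with earlier results of these libraries known, and it holds genes already reported as higher in them, such as Ehf. Its share is therefore no independent test against all genes. Cebpa and Cebpd encode C/EBP factors of myeloid progenitors. Cebpa had 35.2, 35.0 and 41.8 CPM in fl/fl against 61.7, 63.0 and 76.4 CPM in KO libraries, a log2 fold change of 0.84 ± 0.11 (adjusted p = 0.0122). Cebpd had 31.6, 31.3 and 32.3 CPM against 48.8, 41.7 and 48.5 CPM, a log2 fold change of 0.55 ± 0.08 (adjusted p = 0.0187). The groups lay apart for both genes.

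Ehf, an Ets factor, had 1.08, 2.11 and 1.53 CPM in fl/fl against 4.14, 5.23 and 5.33 CPM in KO libraries. Its log2 fold change of 1.63 ± 0.29 (adjusted p = 0.0278) was the one of the 5 above 1. Trps1, a GATA-type repressor, changed by 0.66 ± 0.13 on the log2 scale (adjusted p = 0.0399), and Stat5a, which carries cytokine signals, by 0.41 ± 0.08 (adjusted p = 0.0460). The median log2 fold change over the 47 was 0.11, with 32 positive. The count depends on single libraries: 12 passed without KO 1 and 1 without KO 3, and leaving out a control library left none (fl/fl 1 or fl/fl 2) or 1 (fl/fl 3). With the immediate early genes as a covariate, which partly follows genotype, none passed, and with the mature DC genes 9 did.

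Few genes beside the factors passed, as over all genes. Within 100 kb of a factor, 29 other genes were tested and, beside 3.88% of all genes, 1 passed. It was Kidins220, a membrane scaffold of receptor signals, which lies 30647 bases from Id2 on the opposite strand. Its mean was 191 ± 9.18 CPM in fl/fl and 321 ± 37.5 CPM in KO libraries, a log2 fold change of 0.75 ± 0.09 (adjusted p = 0.00918), next to an Id2 that differed by 0.04.

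The pattern of Klf4 over the 6 libraries was most like that of Slc43a2, an amino acid transporter gene, with a Pearson r of 0.9986 on log2 CPM. Slc43a2 had 95.3, 102 and 114 CPM in fl/fl against 154, 139 and 188 CPM in KO libraries, a log2 fold change of 0.62 ± 0.12 (adjusted p = 0.0394). Hrh1, which encodes a histamine receptor, and Egfl8 came next, with r of 0.997 and 0.9969. These are the highest values among 12894 genes over 6 libraries of 2 genotypes, and they describe likeness only.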

How the data were processed

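The 6 libraries were made from poly(A) RNA of sorted cells with a directional kit. The authors aligned reads to GRCm38 (mm10) with STAR 2.6.1a and Gencode annotation and deposited read counts per gene, not normalized and not pooled; the strand setting used for counting is not given in those sources. Only uniquely placed reads enter such counts, so genes with near-identical copies lose reads. Reads not assigned to a gene, for whatever reason, were 20.3 to 20.9% per library and stayed out of library sizes. Of 54532 identifiers, 54495 were named from GENCODE M21. Groups came from the labels; the study's supplement describes each RNA-seq sample as 1 mouse, and the labels do not, so p-values measure the spread between these samples.

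Genes with enough reads for edgeR's filterByExpr (12894) were fitted by genotype in edgeR 4.0.16 (TMM, quasi-likelihood F-test) in R 4.3.3, with Benjamini-Hochberg adjustment over all of them. DESeq2 1.42.0, limma-voom 3.58.1, other filters, log2 limits and lengths, a replicate block, and leaving out each library were alternatives. The fits with mature DC or immediate early genes as a covariate, and both gene lists, were added after values had been seen. The code was tested on simulated data. Named genes were all 10 factors, list members that passed, the nearest paralogs, Jun, Junb, Itgax and defining markers. Neighbours of factors that passed and the 3 genes most like a factor that passed were also named. Ikzf2, Tcf12, Klf9, Klf16, Id3, Bst2, Ptcra, Vpreb3, Igll1, Mertk, C5ar1 and Lyz2 were named after their values were seen. So were Kit, Mcpt8, Prss34, Fcer1a, Mcpt4, Tpsb2 and the genes of the added lists. The factors and all lists were chosen with earlier results of these data known. Marker lists for neutrophils, T and NK cells, basophils and mast cells, and progenitors had no tested gene past the threshold. Their sums in KO libraries were 3.53 to 11.4, 3.13 to 3.61, 351 to 466 and 1083 to 1277 CPM. In fl/fl libraries they were 5.01 to 22.1, 2.93 to 3.44, 289 to 368 and 1217 to 1242 CPM. Most of the basophil and mast cell sum was Kit, also a progenitor marker, at 288 to 366 CPM in fl/fl and 349 to 462 CPM in KO libraries. Mcpt8 and Prss34 had too few reads for the test. KO 2 held 103 and 118 reads of them, against 0 to 6 in fl/fl libraries and 5 to 29 in KO 1 and KO 3. Fcer1a had 2 reads in KO 2, and Mcpt4 and Tpsb2 had none in any library.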

Additional observations from a re-analysis of the deposited data

How the results depend on the processing

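Of 150 refitted log2 fold changes of the 10 factors, 129 kept their direction and their side of the threshold, 14 changed sign, 6 lost the call and 1 gained it. All sign changes were of factors that had not passed. Spib was at -0.13 with limma-voom, -0.071 with the replicate block and -1.20 with the immediate early covariate. In that last fit Id2 was at -0.057, Bcl6 at -0.11, Spi1 at -0.045 and Ikzf1 at -0.0052. Zbtb46 was at 0.026 with the mature DC covariate. When leaving out 1 library, Zbtb46 ran from -0.057 (KO 2) to 0.033 (KO 1), Bcl6 from -0.042 (KO 2) to 0.13 (KO 1), Spi1 from -0.0034 (KO 2) to 0.17 (KO 1) and Spib from -0.44 (KO 2) to 0.55 (KO 1); the cause of these changes was not tested. The number of factors past the adjusted p was 0 with robust dispersion (Klf4 at 0.0501) and with the immediate early covariate, 2 with the mature DC covariate, and 0 to 1 when leaving out 1 library. The number that also reached the log2 limit was 1 (Klf4) with a limit of 0.5 and 0 to 1 when leaving out 1 library, being 1 without KO 1 or KO 2. Other regulators past the adjusted p numbered 10 with DESeq2, 9 without a filter on low counts, 9 and 0 with the mature DC and immediate early covariates, and 0 to 12 when leaving out 1 library. Relatives past it numbered 1 (Spic) with DESeq2, and 0 to 1 when leaving out 1 library (Klf9 without KO 1, Spic without KO 2). Klf4 had an adjusted p from 7e-07 (DESeq2) to 0.166 over 15 alternatives, and 9 of them kept its call. Same-numbered libraries of the genotypes had correlations of 0.091, -0.148 and 0.1999 in their deviations, so the numbers did not pair them; with the replicate block Klf4 had an adjusted p of 0.0110 and 6 other regulators passed. With 3 libraries a genotype, the intervals of Nfil3, Zeb2 and Spib leave differences of 1 on the log2 scale possible, and reads of PCR copies were not told apart.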
